A study of Mus musculus with 6 samples.

Results

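Mito-only regions were stretches of the mouse genome with an ATAC-seq peak in both lists named mito and in none of the 4 lists named LM and eG1-1. They were chosen by the peak calls themselves, so presence, absence and mito score are described here and not tested. Peaks of the 6 lists that overlapped by at least 1 bp on chromosomes 1 to 19 were merged into 64018 regions, and 548 of these (0.856%) met the rule. The 2 mito lists shared 18527 regions, of which the 548 made up 2.96%.

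ATAC-seq marks accessible DNA by letting the transposase Tn5 insert sequencing adapters into it. The 6 samples were CGR8 Cdt1-MD mouse embryonic stem cells, a single line, in 3 groups of 2: mito, LM and eG1-1. All groups were untreated and grew on gelatin in N2B27 medium with the GSK3 inhibitor CHIR99021, the MEK inhibitor PD184352 and leukemia inhibitory factor. The labels give no other difference between the groups and explain none of the 3 names, so mitosis, late mitosis and early G1 are readings based on the series title. In the LM lists the names of the peaks say Telo. The titles and the protocol give different numbers of cells, the labels do not say whether replicates were separate cultures, and what Cdt1-MD carries is not described there. By the names of the peaks, all replicate 1 lists came from 1 sequencing run and all replicate 2 lists from another.

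When a cell divides, chromosomes condense, transcription largely stops and many transcription factors leave DNA, yet much of the accessible DNA of promoters and enhancers stays reachable to enzymes such as Tn5. Factors that remain on mitotic chromosomes are often called bookmarking factors, and genes are switched back on in waves as cells enter G1. The samples are bulk populations, in which a site open in fewer cells and a site less open in every cell cannot be told apart.

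On chromosomes 1 to 19, mito replicate 1 had 24101 peaks and replicate 2 had 29779. The LM replicates had 23377 and 20289, and the eG1-1 replicates 31443 and 47411. Read depth is unknown, because the lists hold no read counts, and the absence of a peak says only that none was called. The number of mito-only regions depended on single lists. It was 3689 without mito replicate 1, 2468 without mito replicate 2, 987 without LM replicate 1 and 1301 without eG1-1 replicate 2, the list with the most peaks. Without LM replicate 2 it was 649 and without eG1-1 replicate 1 it was 704. With every list cut to its 20289 strongest peaks, 591 regions met the rule.

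A window from 250 bases before to 50 bases after the start of a protein-coding gene was overlapped by 78 of the 548 regions (14.2%, Wilson 95% interval 11.6 to 17.4%). The naming rule picked 16 promoters of such genes. The 8 whose upstream 250 bases lie outside every annotated gene are shown, since the regions cover these sequences in whole or in part. They come from RefSeq on GRCm38.p6, the assembly behind mm10, and are written 5′ to 3′ on the strand of the gene, ending at the base before its start. Capitals mark matches on either strand to 12 short motifs. Of promoter elements these were the TATA box, searched as TATAAA, and the box bound by NF-Y, searched as CCAAT. Of promoter factors, ETS proteins were searched as CCGGAAG, the factor YY1 as AAGATGGCG, the SP/KLF family as GGGCGG and the cyclic AMP response element, CRE, as TGACGTCA. The cell cycle homology region, CHR, was searched as TTTGAA and the E-box of basic helix-loop-helix proteins as CACGTG. Of factors of pluripotent cells, the octamer was searched as ATGCAAAT, SOX proteins as ACAAAG and ESRRB as TCAAGGTCA. The site of stress-induced AP-1 was searched as TGANTCA.
Slc35g1: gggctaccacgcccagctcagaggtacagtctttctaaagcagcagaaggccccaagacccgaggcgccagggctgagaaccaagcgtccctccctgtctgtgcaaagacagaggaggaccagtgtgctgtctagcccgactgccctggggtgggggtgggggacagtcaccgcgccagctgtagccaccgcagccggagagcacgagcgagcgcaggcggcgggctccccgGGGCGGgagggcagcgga
Aqr: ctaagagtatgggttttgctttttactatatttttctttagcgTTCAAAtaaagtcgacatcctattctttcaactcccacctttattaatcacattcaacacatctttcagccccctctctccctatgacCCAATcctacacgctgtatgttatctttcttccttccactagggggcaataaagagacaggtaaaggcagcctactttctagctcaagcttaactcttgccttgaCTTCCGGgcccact
2410004B18Rik: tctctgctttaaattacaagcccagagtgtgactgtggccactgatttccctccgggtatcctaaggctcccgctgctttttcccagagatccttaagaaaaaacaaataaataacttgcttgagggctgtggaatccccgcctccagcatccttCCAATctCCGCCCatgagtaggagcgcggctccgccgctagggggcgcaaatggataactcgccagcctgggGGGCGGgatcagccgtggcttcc
Rpl26: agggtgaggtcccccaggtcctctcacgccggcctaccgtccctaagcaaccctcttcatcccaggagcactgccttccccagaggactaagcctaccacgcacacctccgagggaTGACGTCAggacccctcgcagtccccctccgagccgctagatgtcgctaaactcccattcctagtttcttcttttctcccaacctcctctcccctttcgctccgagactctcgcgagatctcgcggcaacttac
H4c4: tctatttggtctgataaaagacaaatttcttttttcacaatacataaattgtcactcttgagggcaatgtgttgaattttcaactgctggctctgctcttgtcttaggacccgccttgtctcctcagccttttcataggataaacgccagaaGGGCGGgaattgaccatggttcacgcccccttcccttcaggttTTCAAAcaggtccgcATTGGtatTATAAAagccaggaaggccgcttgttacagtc
Rpl35: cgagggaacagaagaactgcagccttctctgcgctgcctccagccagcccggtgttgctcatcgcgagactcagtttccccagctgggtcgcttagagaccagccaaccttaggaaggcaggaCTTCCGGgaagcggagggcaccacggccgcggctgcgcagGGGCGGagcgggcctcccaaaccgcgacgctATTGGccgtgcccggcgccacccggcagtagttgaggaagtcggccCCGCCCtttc
Slc38a2: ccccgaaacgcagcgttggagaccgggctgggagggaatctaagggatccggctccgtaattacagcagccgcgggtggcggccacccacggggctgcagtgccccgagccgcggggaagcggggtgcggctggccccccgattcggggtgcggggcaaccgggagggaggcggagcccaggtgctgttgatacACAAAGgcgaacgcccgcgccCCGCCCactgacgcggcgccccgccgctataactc
Smad3: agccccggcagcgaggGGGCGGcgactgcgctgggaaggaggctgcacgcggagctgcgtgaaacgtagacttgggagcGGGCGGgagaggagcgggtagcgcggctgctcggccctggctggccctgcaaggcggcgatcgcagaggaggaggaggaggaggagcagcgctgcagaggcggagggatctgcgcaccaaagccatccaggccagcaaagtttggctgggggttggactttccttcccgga
The windows lie at chr19:38395730-38395979 (+ strand, Slc35g1), chr2:114175340-114175589 (- strand, Aqr), chr3:145937764-145938013 (+ strand, 2410004B18Rik), chr11:68901316-68901565 (+ strand, Rpl26), chr13:23581318-23581567 (+ strand, H4c4), chr2:39005132-39005381 (- strand, Rpl35), chr15:96699729-96699978 (- strand, Slc38a2) and chr9:63757995-63758244 (- strand, Smad3). Their composition varied widely. The Aqr window held 42% G and C and the H4c4 window 44.4%, against 72% for Slc38a2 and 69.2% for Smad3. H4c4, a replication-dependent histone H4 gene, was the only one of the 8 with a TATA box match, 32 bases before the start, with a CCAAT box match 40 bases before it. Rpl26 had a CRE match 134 bases before the start, and Aqr an ETS match 14 bases before it. Some marked matches lay outside the mito-only region. These were the only match of Slc35g1, both matches of Slc38a2, the CHR match of Aqr and the SP/KLF match of H4c4. SP/KLF matches stood in 6 of the 8 windows, all but Aqr and Rpl26. In the 94 start windows of 300 bases that mito-only regions overlapped, the share was 64.9%. Rpl26, H4c4, Rpl35, Slc38a2 and Smad3 were taken as listed genes whose promoter carried a match. Counts of matches over the 8 windows are therefore partly set by the choice.

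Mito-only regions were weak peaks in both mito lists. The score is the authors' own value per peak and is used only within a list, as a score or as a percentile of that list's peaks, with ties at their middle rank. In mito replicate 1 the 548 scores ran from 13 to 128 with a median of 37, and the middle 50% of them lay between 27 and 47. In mito replicate 2 they ran from 14 to 131 with a median of 41, and the middle 50% lay between 31 and 56. The median percentile was 26.5 and 28.2 in the 2 lists. The other 17979 regions of both mito lists had median scores of 65 and 84, at percentiles 60.7 and 68.1, with highest scores of 52601 and 66317. The highest percentile of a mito-only region was 88.0 and 86.1, so none was among the strongest peaks of its list.

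The share of mito-only regions fell step by step as the lower of the 2 mito percentiles rose to 80. It was 12.1% (181 of 1496 regions) in the lowest 10 percentile points, 6.90% (129 of 1870) in the next, then 6.33%, 3.53%, 1.49%, 0.865%, 0.455% and 0.200% (4 of 2000) for percentiles 70 to 80. None of the 1864 regions at 80 to 90 and none of the 1689 above 90 was mito-only, which allows shares of up to 0.161% and 0.178% (3 counts of the total). Wilson intervals and such limits, here and elsewhere, cover counting error only.

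**Figure D1:**
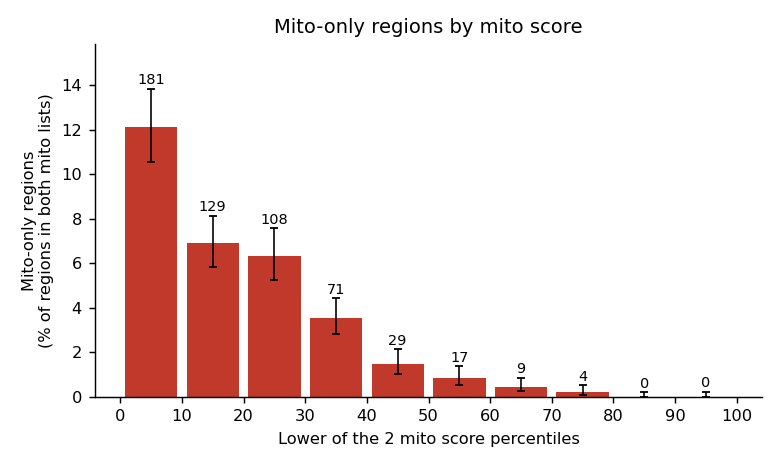
Share of mito-only regions among regions of both mito lists (y axis, %) against the lower of the 2 mito score percentiles (x axis, 10 points per bar). Whiskers are Wilson 95% intervals and the numbers above them count mito-only regions, from 181 in the weakest bar to 0 in the 2 strongest.

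The 2 mito lists also ranked these regions less alike. Spearman's rho between the 2 mito scores was 0.200 over the 548 mito-only regions and 0.666 over the 17979 others, given as a description, since all points share the same 2 libraries and the scores of mito-only regions span a narrower range. The peaks of the 2 mito lists overlapped by a median of 232 bp, or 54.3% of the stretch they spanned together, against 457 bp and 64.6% for the others. In 44 mito-only regions (8.03%) the overlap was under 100 bp, against 3.35% of the others, and in 315 it covered at least 50% of the joint stretch. Regions were narrow, with a median of 464.5 bp (234 to 1400) against 896 bp. By the rule, mito-only regions join peaks of 2 lists and the others peaks of 3 to 6, which widens the others. The mito peaks themselves had median widths of 297 and 361 bp in mito-only regions and 528 and 637 bp in the others.

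Gene ends took a smaller share of mito-only regions than of the other regions of both mito lists. A region counted as gene-end when its centre was 1 kb or less from an annotated end of a protein-coding gene, which held for 181 mito-only regions (33.0%, interval 29.2 to 37.1%), against 42.6% of the other regions of both mito lists and 21.4% of all regions. Regions of both eG1-1 lists and no other list, the mirror case of 3563 regions, stood at gene ends in 7.58%. The 128 regions of both mito and both LM lists without an eG1-1 peak stood there in 54.7%, and the 9939 regions of all 6 lists in 49.0%. Among regions with a lower mito percentile under 50 the gene-end shares were 31.7% (n = 518, 27.8 to 35.8%) for mito-only regions and 29.9% (n = 8514, 29.0 to 30.9%) for the others, with overlapping intervals. Band by band the order turned: over the 5 bands of 10 points below 50, from the weakest, gene-end shares were 24.3%, 28.7%, 42.6%, 35.2% and 41.4% for mito-only regions against 20.5%, 26.9%, 30.8%, 33.7% and 34.7% for the others. The lower share of mito-only regions at gene ends was therefore not seen between regions of like mito score. The share was 41.0% without LM replicate 1, 24.4% without mito replicate 2 and 20.5% without mito replicate 1.

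Gene starts held a smaller share of mito-only regions, also at like scores under percentile 50. The start window was overlapped by 14.2% of mito-only regions and by 35.5% of the other regions of both mito lists, 14.0% of all regions and 3.40% of the eG1-1-only regions. Under percentile 50 the start shares were 12.7% (10.1 to 15.9%) for mito-only regions and 22.2% (21.4 to 23.1%) for the others, with no overlap of the intervals. In the same 5 bands it was 10.5%, 6.98%, 17.6%, 19.7% and 17.2% for mito-only regions against 12.5%, 19.5%, 23.5%, 24.8% and 27.7%, lower in each. Intervals per band were not computed. At percentile 50 or more the start shares were 40.0% (n = 30, 24.6 to 57.7%) and 47.5% (n = 9465, 46.5 to 48.5%), with overlapping intervals. The rule itself keeps out any region over a start that holds an LM or eG1-1 peak, so the share at starts is not independent of it. Mito-only regions were also narrower, as given above, and the part of width in this share was not tested. Leaving out LM replicate 1 raised the share to 22.8%, and leaving out mito replicate 1 or 2 lowered it to 6.48% and 8.10%.

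Around gene starts, a smaller share of mito-only regions was centred within 250 bp of the start, and a larger share 250 to 1000 bp away, than of the other weak regions of both mito lists. No starts on chromosome 18 were used here, which left 538 regions. Of these, 49 (9.11%) were centred within 250 bp of the nearest protein-coding start and 94 (17.5%, 14.5 to 20.9%) between 250 and 1000 bp away, 51 after the start and 43 before it. The other regions of both mito lists with a lower percentile under 50 had 15.9% within 250 bp and 10.4% (9.76 to 11.1%) between 250 and 1000 bp. The outer class spans more bases than the inner one, and per base the share was higher within 250 bp in both sets. For mito-only regions under percentile 50 the shares were 7.68% (5.67 to 10.3%) and 17.3% (14.3 to 20.9%). These shares use centres only, not widths, but they too are bound by the absence of LM and eG1-1 peaks that the rule asks for. The share between 250 and 1000 bp was 11.6% without mito replicate 1 (n = 3587) and 8.38% in the weaker others of that setting. Without LM replicate 1 it was 21.7% against 10.3%, but the share within 250 bp was then 15.5% against 14.98%. With a mito score of at least 50, 53 regions were left, with 24.5% within 250 bp and 20.8% beyond it. The 1389 others of that setting, all with a lower percentile under 50, had 20.01% and 11.1%. Mito-only regions had no such upper limit in any of these settings. The lower share at starts was thus not seen in either setting, but neither compared regions of like score. The outer share was 14.0% against 10.0% when peaks up to 500 bp apart were merged. These distance classes were chosen after the values were seen.

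**Figure D2:**
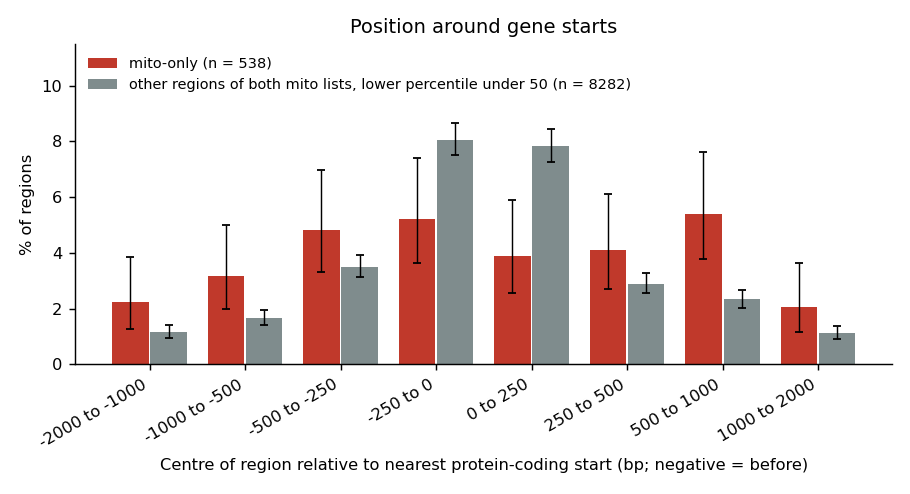
Share of regions (y axis, %) by distance of the region's centre from the nearest protein-coding start (x axis, bp, negative before the start), for mito-only regions and for other regions of both mito lists with a lower percentile under 50. Whiskers are Wilson 95% intervals; mito-only bars are the lower ones within 250 bp and the higher ones beyond it.

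The 5′ end of genes took most of the gene-end regions. Of the 538, 128 (23.8%) lay within 1 kb of a 5′ end only, 17 (3.16%, 1.98 to 5.00%) of a 3′ end only and 4 of both, where strand was known. The 3′-end share was 1.51% in the other regions of both mito lists and 1.84% in those under percentile 50, and the last interval, 1.57 to 2.15%, overlapped that of the mito-only regions.

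The starts beside mito-only regions carried a peak of their own in some lists and none in others. For 65 starts, a mito-only region was centred within 1000 bp without overlapping the start window. A peak overlapped the window at 25 and 21 of these starts in the mito lists, at 24 and 8 in the LM lists and at 10 and 17 in the eG1-1 lists. No list held the window at 27 of the 65 starts, and all 6 lists held it at 4. Over all 20084 starts, taking the lists in the same order, the shares held were 40.5%, 42.8%, 41.3%, 29.9%, 34.8% and 42.6%, beside 38.5%, 32.3%, 36.9%, 12.3%, 15.4% and 26.2% of the 65. The choice of the 65 favours low shares, since a mito peak reaching the window would put the region over the start and an LM or eG1-1 peak reaching both would remove the region, so nothing is read from the difference.

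The promoters overlapped by mito-only regions were rich in G and C. The 94 start windows of 86 genes held a median of 66.3% G and C, against 61.7% in 7889 windows overlapped by another region of both mito lists and 57.0% in all 20084. The observed over expected CpG ratio, a measure of CpG islands, was 0.866, 0.791 and 0.586 in the same order. Windows of genes with several starts overlap each other, so the 94 are not independent. On both measures the mito-only windows stood above the other mito windows, by medians. These sets of windows were not matched by the mito score of their regions.

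Each of 15 motifs was searched on both strands in these windows of 300 bases, and no motif string contained another. The CCAAT box stood in 22 of 94 mito-only windows (23.4%, 16.0 to 32.9%), against 43.8% of the windows of other mito regions and 38.1% of all windows. SP/KLF matches stood in 64.9%, 69.2% and 47.0%, ETS matches in 21.3%, 21.8% and 11.9%, and matches to NRF1 in 11.7%, 12.7% and 6.55%. A TATA box was matched in 2.13%, 5.67% and 12.7%, CRE in 4.26%, 3.85% and 2.30%, and CHR, an element of genes that peak in G2 and mitosis, in 8.51%, 11.0% and 15.4%. Of these 7 motifs, the interval of the mito-only windows left out the value of the other mito windows for the CCAAT box alone. The windows were not matched by the mito score of their regions. The E-box stood in 9.57%, 10.9% and 7.89%, SOX in 11.7%, 12.1% and 16.6%, AP-1 in 5.32%, 3.92% and 7.06%, THAP11/ZNF143 in 2.13%, 5.73% and 2.64%, and CTCF in 5.32%, 2.32% and 1.65%. YY1, the octamer and ESRRB had no match in the 94 windows, which allows shares of up to 3.19%. They stood in 284, 120 and 19 of the 7889 windows of other mito regions and in 1.83%, 1.67% and 0.339% of all windows. For YY1 the share in the other mito windows was above that limit, but inside the Wilson interval of the mito-only windows, which reached 3.93%. A match describes letters in a window and is not a bound site.

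Across all protein-coding genes, 203 of 20661 (0.983%) had a mito-only region at an end. The 25 highest-ranked of these genes shared 21 regions, and 18 of the regions scored at or above the median peak in both lists (55 in mito replicate 1 and 59 in replicate 2). The highest region, at chr3:96727068-96727601, overlapped start windows of Polr3c, a subunit of RNA polymerase III, and Rnf115, an E3 ubiquitin ligase. It scored 128 and 97. The nearest LM or eG1-1 peak was 7570 bp away, in eG1-1 replicate 2. Slc35g1, a solute carrier gene, followed with 78 and 129, with its centre 395 bp before the start and the nearest other-group peak 10857 bp away. Elovl7, a fatty acid elongase gene, had a region 515 bp after its start with scores of 98 and 94, and eG1-1 replicate 2 had a peak 878 bp from it. Aqr, which encodes a helicase of the spliceosome, scored 86 and 104 at 58 bp after its start. All 4 regions were well separated from LM peaks, by 2579 bp or more.

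Zfp334, a zinc finger gene, scored 76 and 111, and Hrh3, the histamine receptor H3 gene, 57 and 123 with its centre 401 bp before the start. The nearest other-group peak to the Hrh3 region was 13836 bp away. At 2410004B18Rik the scores were 67 and 91. Prkaca, the catalytic subunit of protein kinase A, and Samd1, which binds CpG islands, shared a region with scores of 83 and 68. Both lists placed these 4 regions above their median peak.

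Several genes of chromatin and RNA regulation followed. Kdm1a, the histone H3 lysine demethylase also known as LSD1, scored 69 and 75 with its centre 196 bp before the start. Gnl3, which encodes nucleostemin, and Pbrm1, a subunit of the PBAF remodelling complex, shared a region at their starts. Its scores were 121 and 47, so the 2 mito lists placed it on different sides of their medians. Banf1, which cross-links chromosomes as the nuclear envelope reforms after division, shared a region with Eif1ad at 60 and 82. That region was not isolated, since LM replicate 1 had a peak 92 bp away with a score of 21. Mtf2, an accessory subunit of Polycomb repressive complex 2, scored 71 and 62 at 214 bp after its start. Tra2a, a splicing regulator, scored 56 and 73, with an LM replicate 1 peak 106 bp away.

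The remaining genes of the top 25 were of mixed kinds. Cuedc1 scored 59 and 88, 663 bp after its start, with peaks of both LM lists 553 and 535 bp away. Asphd2 scored 66 and 73, Lrig3 61 and 73, and Naaladl2 82 and 59. Slc44a5, a choline transporter-like gene, scored 54 and 80, and Rpl26, a ribosomal protein gene, 69 and 59. Ryr2, the calcium release channel of heart muscle, scored 47 and 84 at 757 bp after its start, and 3 other-group lists had a peak 545 to 595 bp away. Itm2c scored 56 and 67. By function, the 25 genes thus ranged from RNA polymerase III and splicing to receptors and ion channels.

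**Figure D3:**
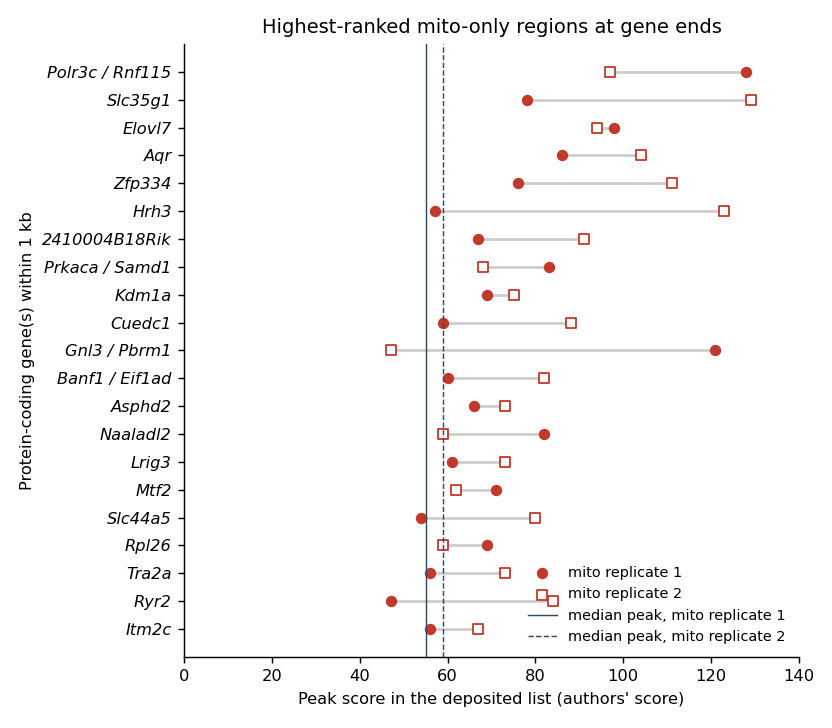
Authors' peak score (x axis) of the 21 highest-ranked mito-only regions at ends of protein-coding genes (y axis, 25 genes) in mito replicate 1 (filled circles) and replicate 2 (open squares), joined by a line per region. Vertical lines are the median scores of all peaks of the 2 lists, 55 and 59; regions such as Gnl3 / Pbrm1 (121 and 47) differ widely between lists.

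Distal mito-only regions numbered 367 (67.0%), of which 182 lay inside protein-coding genes and 185 outside. Their median distance to a gene end was 12.5 kb, and 25 lay over 100 kb from any. The highest lay in Phip, at chr9:82975744-82976108, with scores of 79 and 90, and although distal by annotated ends it was centred 437 bp before a Phip start of the promoter table. Peaks of both eG1-1 lists stood 1499 and 1448 bp from it. The next, at chr6:51170592-51171095, scored 66 and 97 and lay 52113 bp from the nearest annotated gene end, that of Gm38821. The nearest protein-coding start of the promoter table, that of Nfe2l3, was 261825 bp after it. A region 6953 bp before Nags, which makes N-acetylglutamate for the urea cycle, scored 77 and 79, and one 42580 bp before Eed, a core subunit of Polycomb repressive complex 2, scored 50 and 101. Regions inside Parvb and Hnrnpm scored 57 and 103, and 62 and 74. The other 4 of the top 10 scored 44 to 131. Outside protein-coding genes, 38 regions lay inside a lncRNA gene, and 12 regions overlapped the start of a lncRNA. No share over other regions is given for the split by genes, the count over 100 kb or the lncRNA counts. Nothing is therefore read from them.

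Few of the listed genes of stem cell biology were touched. Of 36 pluripotency genes found, 1 had a mito-only region at an end, Sall4, a zinc finger factor of the pluripotency network, with scores of 34 and 61. A further region at chr2:168764606-168765117 inside Sall4 scored 28 and 51, and a region near Atp9a 38 and 86, which made the largest group, 3 regions within 25.2 kb. LM lists had peaks 73 and 150 bp from the middle one. Of 27 formative and germ layer genes 1 was touched, Lhx1, a homeobox factor, with 37 and 28 at 558 bp before its start. No region stood at the ends of 38 genes of G1 and S phase, 39 of G2 and M phase, 31 housekeeping, 29 immediate early and stress, 18 two-cell-like genes or 33 of other cell types. Beside the 0.983% over all genes, a count of 0 or 1 in lists this short is near the background.

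Chromatin and signalling genes gave a few members each, beside 0.983% of all protein-coding genes. Any region of both mito lists stood at an end in 18 of 25 chromatin architecture genes, 23 of 40 chromatin modifiers and 29 of 45 signalling genes. Over all genes it was 8732 of 20661. Of 25 chromatin architecture genes, Banf1 and Ctcf had a region, Ctcf encoding the insulator protein of loop anchors. Ctcf scored 50 and 59 with its centre 637 bp after the start, with peaks of 3 other-group lists within 1049 bp. Of 40 chromatin modifiers, Kmt2c, a histone H3 lysine methyltransferase, scored 61 and 26, and Tet3, a methylcytosine dioxygenase, 58 and 54. The Kmt2c region lay 37 bp from an LM replicate 1 peak. Of 45 signalling genes, Jak2, a kinase of cytokine receptors, scored 55 and 37, and Smad3, which carries TGF-beta and activin signals, 39 and 33. The Jak2 region, centred 649 bp before the start, had its nearest other-group peak 19699 bp away, whereas the Smad3 region had eG1-1 peaks 236 and 288 bp away.

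Ribosomal protein genes gave 4 of 81, namely Rpl12 (46 and 46), Rpl26, Rpl35 (44 and 59) and Rpl9 (55 and 50). Rpl9 shared its region with Lias, and Rpl12 with Lrsam1. Of 63 replication-dependent histone genes 4 were touched, through 2 regions. H2ac13, H2bc13 and H3c10 shared 1 region with scores of 66 and 27, and H4c4 had its own with 38 and 79. The first of these lay 301 to 328 bp from peaks of 3 other-group lists. Zfp genes gave 5 of 360, with Zfp423 at 81 and 37, Zfp592 at 23 and 42, Zfp609 at 42 and 65 and Zfp993 at 49 and 36 beside Zfp334. Solute carriers, listed by names with the family letter a or b and so without Slc35g1 above, gave 6 of 339, with Slc38a2, an amino acid transporter gene, at 37 and 46, Slc16a5 at 43 and 41, Slc43a2 at 49 and 28 and Slc39a4, a zinc transporter gene, at 58 and 33, beside Slc44a5. LM replicate 1 had a peak 10 bp from the Slc39a4 region. Of 39 Hox genes Hoxc11 was touched, with 38 and 46, and of 1453 olfactory and vomeronasal receptors none. Only 2 of these receptors had any region of both mito lists at an end, so a count of none was nearly set beforehand. Of the Hox genes 5 had one. Over all protein-coding genes, 0.983% had a mito-only region at an end. Any region of both mito lists stood at an end in 59 of the 81 ribosomal protein genes and 46 of the 63 histone genes. For Zfp genes it was 222 of 360, for solute carriers 148 of 339 and for all genes 8732 of 20661. The lists thus differ in how many genes could be touched, and no test was made of any list.

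Some small RNA genes lay in or at the edge of mito-only regions. The share of such genes under other regions is not given, so nothing is read from their number. The tRNA genes n-TPcgg3 and n-TVaac3 lay in regions with scores of 16 and 69, and 54 and 27. Mir142 and the antisense Mir142b lay together inside a region at chr11:87756637-87757249 with scores of 70 and 42, and Mir135b overlapped the edge of one with 17 and 53. Mir142 is known as a microRNA of blood cells. The mature sequences of the Mir142 pair are shown because the region spans the whole hairpin, with the seed, bases 2 to 8, in capitals.
mmu-miR-142a-5p: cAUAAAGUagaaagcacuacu
mmu-miR-142a-3p: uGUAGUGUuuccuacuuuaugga
mmu-miR-142b: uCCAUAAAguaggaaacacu
No 2 of these seeds are the same.

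Mito-only regions were spread over the chromosomes and mostly single. The share of both-mito regions that were mito-only ran from 1.98% on chromosome 18 (10 regions) to 4.21% on chromosome 15 (31 regions), and chromosomes 11 and 2 held most, 57 and 56. In all, 47 regions fell into 23 groups within 50 kb. Acad12 had 2 regions at its ends, with scores of 17 and 25, and 23 and 34, and Ephb2, Mast4, Mtus2, Sall4, Sim2 and Zfp993 had 2 regions each inside the gene. All but 1 of the groups were pairs.

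Peaks of the other groups were often close by. The gap to the nearest LM or eG1-1 peak had a median of 2898 bp and ran from 1 to 154923 bp. It was under 100 bp in 24 regions (4.38%), under 500 bp in 128 (23.4%) and under 1000 bp in 191 (34.9%). For about 1 in 3 mito-only regions, a peak of another group thus stood within 1 kb of the called edge. When peaks up to 500 bp apart were merged into 1 region, 442 regions met the rule.

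**Figure D4:**
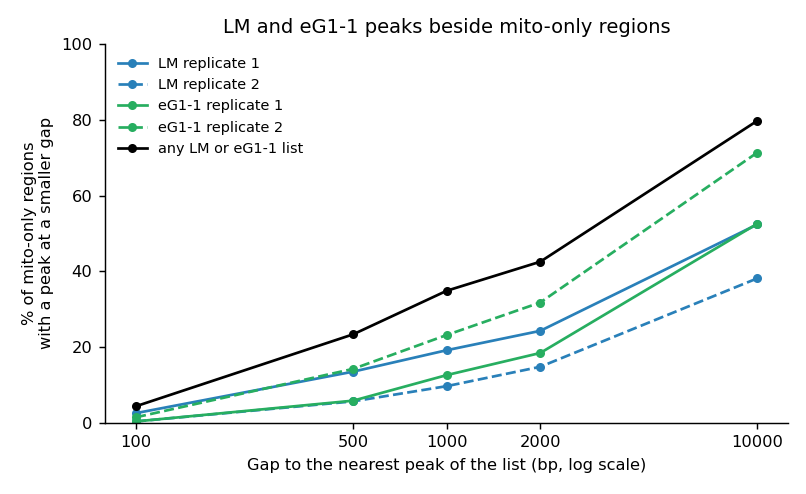
Share of mito-only regions (y axis, %) whose gap to the nearest peak of a list is smaller than the distance on the x axis (bp, log scale), for each LM and eG1-1 list and for any of them. The line for any list rises from 4.38% under 100 bp to 79.7% under 10000 bp, and eG1-1 replicate 2, the longest list, is the highest single list from 500 bp on.

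Mito-only regions had more neighbours in every list than the other regions of both mito lists. The share with a further, non-overlapping peak within 10 kb was 50.9% and 59.3% in the mito lists, 52.4% and 38.1% in the LM lists, and 52.6% and 71.4% in the eG1-1 lists. For the other regions it was 34.7% and 41.3%, 32.2% and 27.3%, and 39.4% and 54.6%. Among the other regions with a lower percentile under 50 it was 38.2% and 45.0%, 34.8% and 29.0%, and 41.9% and 58.1%. All 6 lists gave the highest share to the mito-only regions, whose intervals did not overlap those of either other set in any list. The sets also differed in width (medians of 464.5 and 896 bp), and the part of width in this difference was not tested. The difference is not independent of the rule in any list. LM and eG1-1 peaks near a mito-only region must lie outside it and can count. In the other regions such peaks can be part of the region and then do not count. They can also join further mito peaks to the other regions, and those mito peaks then do not count either.

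The mito and the other lists were compared on this share with a limit set by the rule. The peak of each mito list that makes the region is not counted as a neighbour, while any nearby LM or eG1-1 peak is by rule outside the region and counts, so the contrast is not independent of the calls that chose the regions. The mean share was 55.1% ± 5.94 (SD, n = 2) in mito and 53.6% ± 13.6 (SD, n = 4) in LM and eG1-1, a difference of 1.51 percentage points that is smaller than the spread in either group. The exact two-sided permutation test over 15 assignments of the lists gave p = 0.933, and this design cannot go below 0.0667. If the replicates were not separate cultures, this p reflects technical spread alone. With lists of equal length the difference was 3.64 points with an exact p of 0.0667, the smallest the design can give. Within sequencing runs, with the replicate number as a block, the exact p was 1 over 9 assignments, with a smallest possible value of 0.111.

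**Figure D5:**
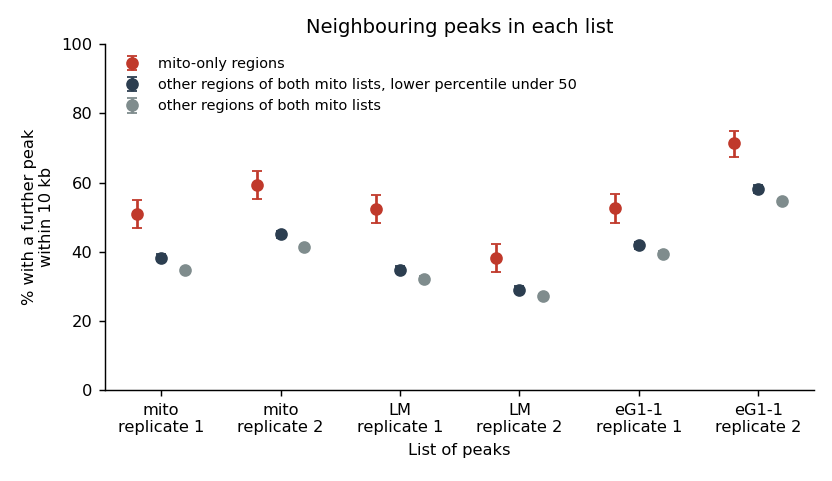
Share of regions with a further peak of the list within 10 kb (y axis, %) in each of the 6 lists (x axis), for mito-only regions, for other regions of both mito lists with a lower percentile under 50, and for all other regions of both mito lists, with Wilson 95% intervals (narrower than the marker where not visible). Mito-only regions are the higher ones in all 6 lists, and the eG1-1 replicates (52.6% and 71.4%) differ more from each other than mito does from the rest.

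Most both-mito regions missed the rule by several lists. By the number of LM and eG1-1 lists with a peak, 0 to 4, they numbered 548, 1398, 2571, 4071 and 9939. Of the 1398 with a single such list, eG1-1 replicate 2 alone kept out 737 (52.7%), LM replicate 1 kept out 409, eG1-1 replicate 1 154 and LM replicate 2 98. The weakest members, just inside the rule, were chr11:105166206-105166510 near Tlk2 with scores of 20 and 14, chr15:100673959-100674571 at Cela1 with 16 and 18, and chr1:164576878-164577410 with 16 and 19. Just outside it were chr11:116758304-116759205 with 27 and 27, kept out by a peak of score 13 in eG1-1 replicate 2, chr19:59469239-59469615 with 38 and 39, by one of 13 in eG1-1 replicate 1, and chr6:48626825-48627455 with 37 and 59, by one of 13 in LM replicate 2. The members shown were picked by their low mito scores and the excluded regions by the low score of the excluding peak. Their mito scores are therefore not compared. The lowest score in any list was 13.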

How the data were processed

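ATAC-seq peak lists of 6 samples, 2 each of mito, LM and eG1-1 as the titles give them, were used as deposited. The score of each peak is the authors' own value, a whole number of at least 13 in every list, of unstated scaling. Per the submitters' processing notes, the tools included MACS2 2.2.4, bedtools, STAR 2.7.0e, SAMtools 1.10, Picard and deepTools 3.5.1, and the builds mm10 and GRCm38. Their roles are not stated there. Peak names in the deposited lists show calls per sample. The caller's threshold, and whether reads were shifted for the Tn5 offset were not given in the sources used here.

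Peaks on chromosomes 1 to 19 were merged at 1 bp of overlap with Python 3.11.15, numpy 2.4.6, pandas 2.3.3 and scipy 1.17.1, and figures drawn with matplotlib 3.10.9. The merging and the permutation test were tested on simulated data. Gene ends and starts came from RefSeq tables on GRCm38.p6: 20661 protein-coding genes, of which 16456 had 1 or more of 20084 starts, with none used on chromosome 18. A region stood at a gene end when its centre was 1 kb or less from an annotated end. A neighbour was a non-overlapping peak within 10 kb. Depth is unknown, since no counts were used.

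Members, gene lists and tests were chosen with earlier results of these data known. Named genes are the 25 gene-end genes and 10 distal regions with the highest mean mito percentile, up to 5 genes per list, up to 8 top promoters plus listed genes whose promoter carried a motif, 3 regions on each side of the rule, genes with 2 regions, and the largest group. Promoter windows that overlap an annotated gene were not printed. The distance classes around starts, flanked starts, percentile bands and overlap of the mito peaks were chosen after values were seen. Alternatives were lists of equal length, a mito score minimum of 50, merging over 500 bp, other windows, the replicate block, each list left out, and, added later, mito peaks sharing at least 50% of their joint stretch.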

Additional observations from a re-analysis of the deposited data

Results flagged for a closer look

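Chromosome X was outside the rule, which covers chromosomes 1 to 19. There, 11 regions had a peak in both mito lists and in no other list, of 367 regions of both mito lists (3.00%, Wilson 95% interval 1.68 to 5.29%), beside 2.96% on the other chromosomes. It stands out only as a signal in data that the comparisons did not use.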

How the results depend on the processing

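With lists of equal length the number of regions was 591 and the gene-end share 32.5%, while the gene-start share was 18.6% and the neighbour difference 3.64 points (exact permutation p = 0.0667, the smallest possible). With a mito score of at least 50 there were 53 regions, with a gene-end share of 50.9%, a gene-start share of 30.2%, a median percentile of 57.5 (28.8 as reported) and a neighbour difference of -22.2 points, the reverse sign. Merging over 500 bp gave 442 regions, a gene-end share of 27.4%, a share centred 250 to 1000 bp from a start of 14.0% and a neighbour difference of -0.0566, again reversed. Leaving out 1 list gave 649 to 3689 regions, a gene-end share of 20.5 to 41.0%, a gene-start share of 6.48 to 22.8%, a median percentile of 17.5 to 32.8, a share 250 to 1000 bp from a start of 11.6 to 21.7% and a neighbour difference of -3.62 to 8.52 points, below 0 without mito replicate 2 (-3.22) and without LM replicate 2 (-3.62). A gene-end window of 500 bp gave 21.0%, a start window of 1 kb either side 28.1%, and neighbours within 50 kb a difference of -0.0456, reversed; within 2 kb it was 2.14. Requiring the mito peaks to share at least 50% of their stretch left 315 regions with a median percentile of 31.5. The cause of these shifts was not tested, beyond windows, merging and list removal altering which peaks count by construction. With the replicate block the neighbour difference was 1.51 with an exact p of 1 by the permutation test, and its p over all settings ran from 0.0667 to 1. Unknown depth limits every absence.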
